A study of Oryza sativa with 10 samples.

Results

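The 18494 genes examined here are those expressed in both the developing endosperm and the flag leaf of rice, out of 37727 annotated loci, and the question put to each was whether green manure moved it differently in the 2 tissues. The cultivar is Nijinokirameki (Oryza sativa), and all samples date from day 5 after flowering. A gene counted as expressed when it passed edgeR's filterByExpr by treatment with a minimum count of 10 in the endosperm libraries alone and again in the leaf libraries alone. A further 4600 genes passed in the endosperm and not in the leaf, 1714 in the leaf and not in the endosperm, and 12919 in neither. At the edge of the filter, the gene of lowest mean that passed in the endosperm (Os12g0255701) had 0.321 CPM (reads of a gene scaled to a common library size) and the gene of highest mean that did not (Os09g0300800) had 4.01 CPM. In the leaf these values were 0.468 CPM (Os07g0607400) and 1.45 CPM (Os11g0592000).

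The 4 groups crossed tissue with soil fertility. Chemical fertilizer (CF) was a basal dressing of 56 kg/ha N, 176 kg/ha PO4 and 56 kg/ha K. Green manure (GM) was a crop of hairy vetch, a legume, turned into the paddy soil, and its plots received no chemical fertilizer. Endosperm was sequenced in 2 libraries under CF and 2 under GM, flag leaf in 3 and 3. An endosperm replicate came from the spikelets of a single plant, with the embryo removed while the grain was frozen. The labels do not say whether leaf replicates were separate plants or whether a regime was repeated over plots, so the p-values measure the spread between these libraries, part of which may be technical.

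The endosperm of a cereal grain is a storage tissue that fills with starch and protein, and the flag leaf, the last leaf below the panicle, is a main source of the sugars it uses. Plant cells share a conserved set of chaperones. Small heat shock proteins hold unfolding proteins in solution, HSP70 with its J-domain partners and HSP90 refold them, and HSP101 pulls aggregates apart. Heat stress transcription factors of class A switch these genes on, and members of class B mostly modulate that response. The genes also serve normal protein folding and seed development.

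Libraries held 12200510 to 25827356 counted reads. In leaf, depth did not overlap between treatments, at 12500336 to 15933394 reads under GM and 18540688 to 25827356 under CF. Levels are CPM of the tested genes after TMM scaling, edgeR's correction for library composition. On this scale storage protein genes summed to 74570 and 97131 CPM in the CF endosperm libraries and to 55709 and 75501 CPM under GM. In leaf they summed to at most 17.7 CPM. Photosystem and light-harvesting genes summed to between 86163 and 103285 CPM in leaf. In endosperm they summed to 8143 and 11293 CPM under CF and to 7173 and 7312 CPM under GM. Transcripts of embryo and aleurone, the oil-rich layers around and beside the starchy endosperm, were also present in the endosperm libraries. The 12 marker genes of these cell types summed to 1152 and 1202 CPM under CF and to 610.1 and 658.6 CPM under GM. In leaf they summed to between 3.23 and 4.64 CPM, and the oleosin OLE16 had 0 reads in all 6 leaf libraries. In the endosperm 11 of the 12 had a lower mean under GM, among them Os1-CysPrxB (Os07g0638400) with only 7 reads under CF and 2 under GM. The remaining gene, Os06g0254600, had 0 endosperm reads under CF and 1 under GM. In bulk tissue, fewer cells of a type and less RNA per cell cannot be told apart.

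Under green manure a part of the protein folding genes fell in the endosperm and a part rose in the leaf. The 6 lists of heat stress factors, chaperones and folding enzymes had 229 tested members. Of these, 37 fell in the endosperm, beside 1.11% of all genes, and none rose. In the leaf 28 rose, beside 1.89% of all genes, and none fell. Both changes were called in 15 of the 229, beside 0.146% of all genes. These lists were chosen with earlier results of these data known, so their counts are a description. Over all 18494 genes, the response differed between tissues in 205 genes (1.11% of those tested; edgeR quasi-likelihood F test of the endosperm log2 fold change minus the leaf log2 fold change, Benjamini-Hochberg adjusted p under 0.05). In 185 of them (1.00%) the endosperm response was the lower, and in 20 (0.108%) it was the higher. Among the 185, 175 had a negative value in the endosperm and a positive value in the leaf. Another 9 were negative in both tissues and 1 was positive in both. At least a 2-fold difference between the responses was found in 105 of the 205, 4 of them among the 20. Without endosperm CF replicate 1 the 205 became 102, without leaf CF replicate 2 they became 117, without leaf CF replicate 3 115 and without leaf GM replicate 3 132. The 20 positive calls ranged from 2 to 54 in such fits, with 54 without endosperm GM replicate 2 and 40 without leaf GM replicate 1. They were 8 or fewer without either endosperm CF library, endosperm GM replicate 1, leaf CF replicate 2 or 3, or leaf GM replicate 3. The libraries of CF and GM did not overlap in either tissue, in the direction of the call, for 122 of the 185 (2.13% of all genes) and for 16 of the 20 (2.41% of all genes).

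**Figure D1:**
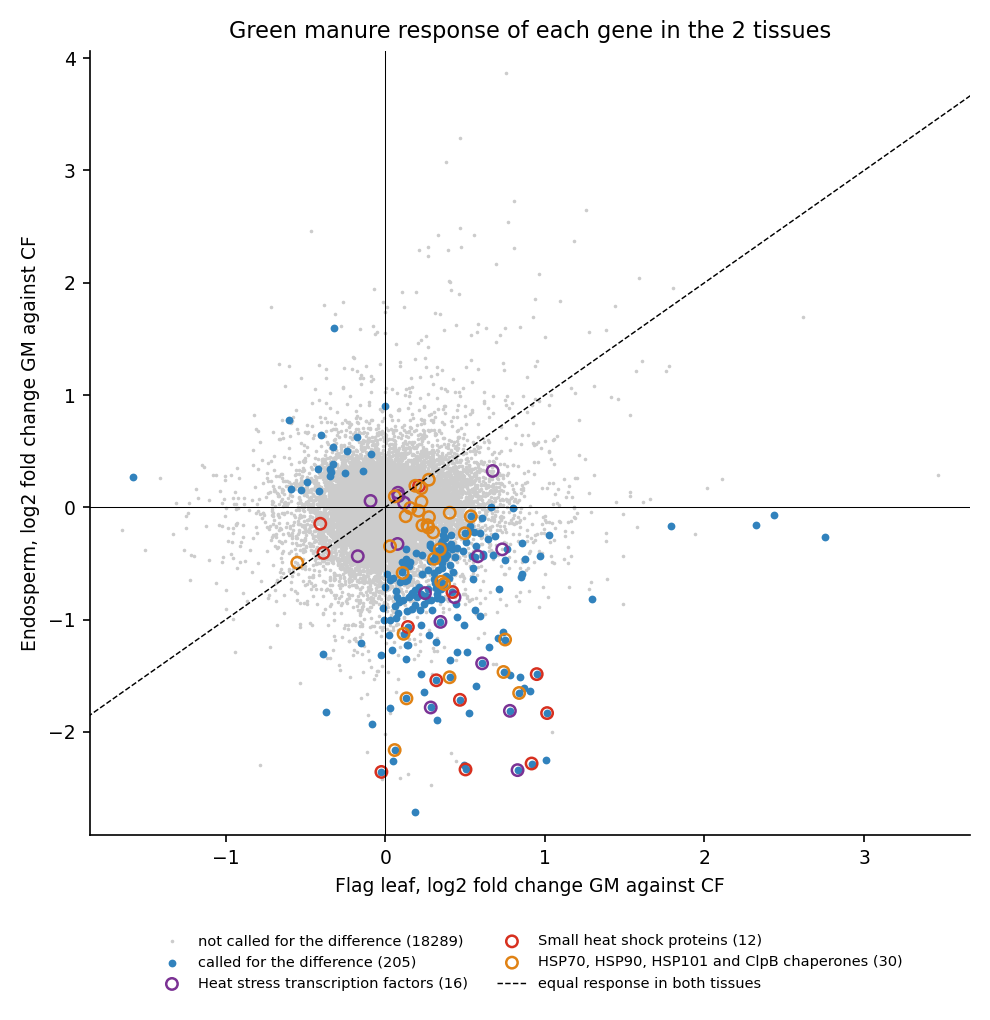
Each point is a gene, placed by its log2 fold change under GM against CF in the flag leaf (x axis) and the endosperm (y axis), and the dashed line marks equal responses. Most of the 205 called genes (blue) lie in the lower right, negative in endosperm and positive in leaf. Many open circles of heat stress factors and chaperones lie there too. The called gene CYP72A1, at −2.72 in the endosperm, lies lower than the factor OsHsfB2b at −2.34.

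Taken tissue by tissue in the same fit, 218 genes differed between GM and CF in the endosperm (1.18%), 205 lower (1.11%) and 13 higher (0.0703%). In the leaf 448 differed (2.42%), 349 higher (1.89%) and 99 lower (0.535%). Leaving out CF replicate 1 brought the endosperm count to 87 and leaving out GM replicate 1 to 99, and the leaf count 23 without CF replicate 3, 47 without CF replicate 2 and 200 without GM replicate 2. Of the 185 genes with the lower endosperm response, 97 were called in the endosperm alone, 40 in the leaf alone, 27 in both and 21 in neither. Only 3 genes of the 18494 were called in both tissues in the same direction. Across all 18494 genes the 2 responses had a Pearson correlation of 0.08 and a Spearman correlation of 0.07, given as a description, since genes are not independent replicates. The median difference between the responses was 0.01, with 90% of genes between −0.70 and 0.54.

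The 27 genes called in both tissues in opposite directions (0.146% of those tested) all fell in the endosperm and rose in the leaf. Of these, 15 belong to the 6 lists, and 18 when chaperonins and co-chaperones are added. The count moved with the leaf libraries: it was 6 without leaf CF replicate 2, 7 without leaf CF replicate 3, 17 without leaf CF replicate 1 and 18 without leaf GM replicate 2. Each of the 27 kept its call for the difference between tissues in all 10 fits that left out a library.

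**Figure D2:**
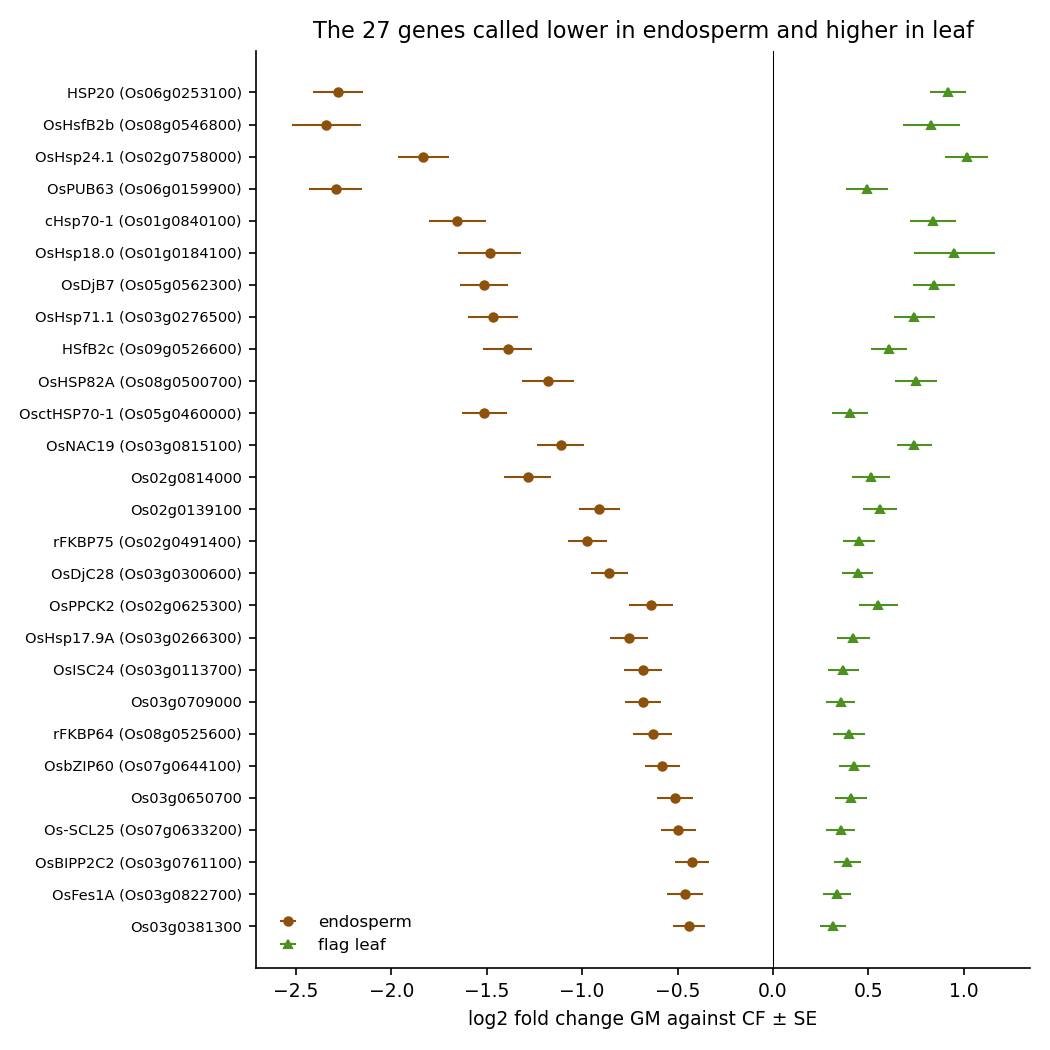
For each of the 27 genes called in both tissues in opposite directions, the log2 fold change under GM against CF is plotted with its standard error in the endosperm (circles) and the flag leaf (triangles). Every endosperm value lies left of 0 and every leaf value right of it, and the small heat shock gene HSP20 and the factor OsHsfB2b are the farthest apart.

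Small heat shock proteins had the most negative median of the gene lists described. HSP20 (Os06g0253100), an HSP20-domain protein, stood at 31.5 and 29.8 CPM in the CF endosperm libraries and at 5.83 and 6.82 CPM under GM. In leaf it stood at 31.1, 38.3 and 33.6 CPM under CF and at 64.0, 69.3 and 61.1 CPM under GM. The groups did not overlap in either tissue, and the tissues, at like levels under CF, stood far apart under GM (means of 6.32 and 64.8 CPM). The endosperm response was −2.28 (SE 0.13, adjusted p = 4.0e-07) and the leaf response 0.92 (SE 0.09, adjusted p = 0.00127), a difference of −3.20 (SE 0.16, adjusted p = 1.2e-07).

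OsHsp24.1 (Os02g0758000), annotated as a mitochondrial small heat shock protein, stood at 289 and 246 CPM under CF and 64.4 and 85.9 CPM under GM in the endosperm. Its leaf libraries gave 39.1, 34.5 and 39.2 CPM under CF and 75.6, 82.5 and 69.97 CPM under GM. All GM libraries lay below CF in the endosperm and above it in the leaf, and GM brought the 2 tissues to overlapping levels. The difference was −2.85 (SE 0.17, adjusted p = 1.1e-06). OsMSR3 (Os03g0267000), a small heat shock protein linked to heavy metal resistance, differed by −2.84 (SE 0.32, adjusted p = 2.0e-04), from an endosperm response of −2.33 (SE 0.18) and a leaf response of 0.50 (SE 0.26, adjusted p = 0.358) that was not called. OsHsp17.4 (Os03g0266900), a class I small heat shock protein, differed by −2.18 (SE 0.20).

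In all, 9 of 12 tested small heat shock genes had a lower response in the endosperm, beside 1.00% of all genes. None had a higher one, and the list median was −2.02 beside 0.01 over all genes tested. Of the 12, 9 fell in the endosperm and 4 rose in the leaf, beside 1.11% and 1.89% of all genes. The mean log2 level over the 12 genes, set against CF of the same tissue, was −1.24 and −1.34 in the GM endosperm libraries and 0.37, 0.34 and 0.25 in the GM leaf libraries. In CF libraries it lay between −0.11 and 0.11. The remaining 24 of 36 annotated members did not pass the filter in both tissues. OsHSP26 (Os03g0245800), for example, averaged 226 CPM under CF and 134 CPM under GM in the endosperm and had 21 and 6 leaf reads in all. Untested members did not all have a lower endosperm mean under GM. Os04g0445100 averaged 11.02 CPM under CF and 15.8 CPM under GM there, and Os11g0244200 averaged 4.869 and 7.203 CPM. OsMSR3, OsHsp17.4 and OsHsp17.9A (Os03g0266300) carry close locus numbers in a family of similar genes, and the deposited values count unique reads, so a split of reads among near copies is uncertain.

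**Figure D3:**
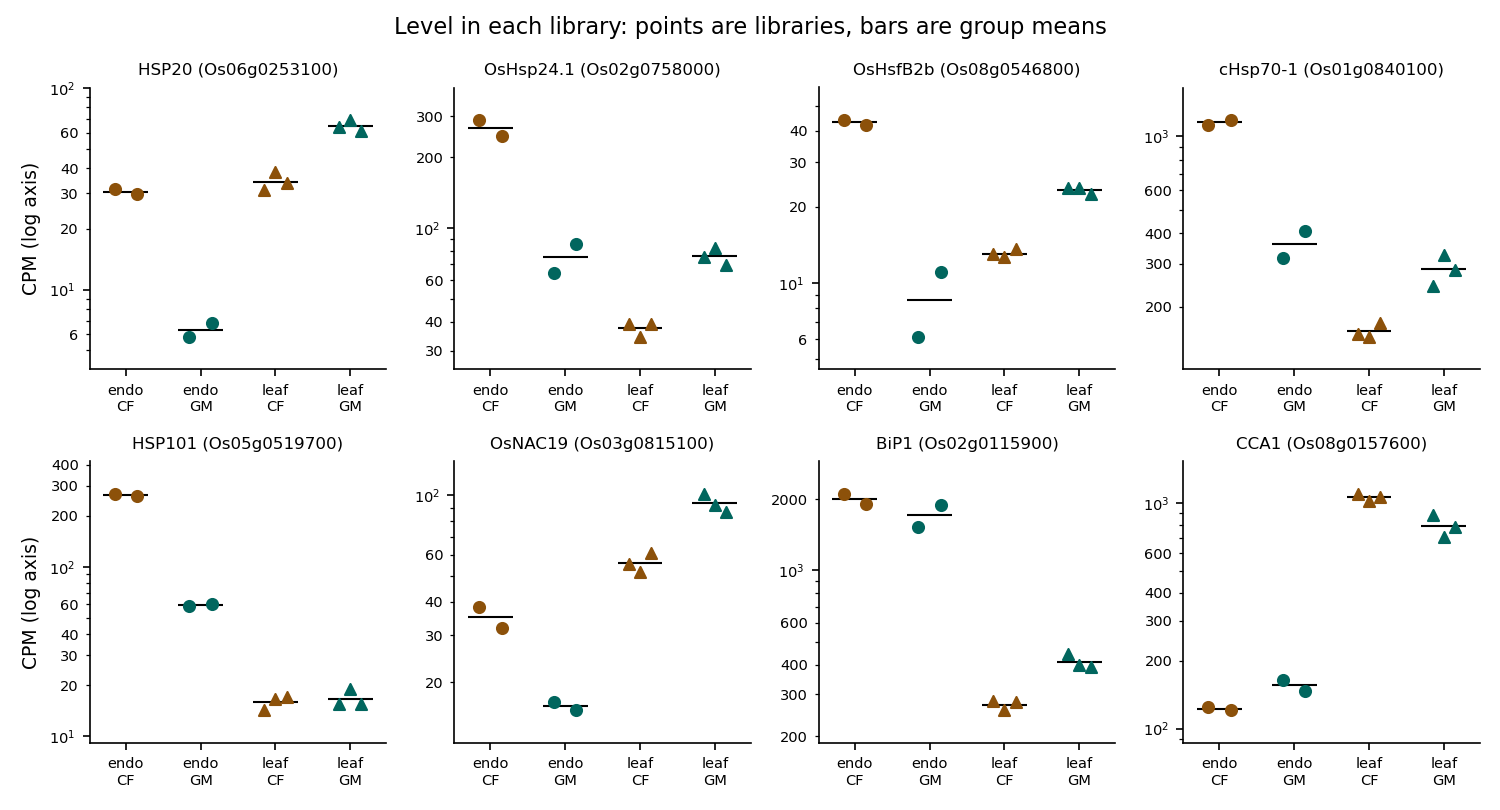
Points are the CPM of single libraries on a log axis and bars are group means, for 8 genes in the CF and GM libraries of endosperm and leaf. HSP20, OsHsp24.1, OsHsfB2b, cHsp70-1 and OsNAC19 drop under GM in the endosperm and climb in the leaf, HSP101 drops in the endosperm alone, BiP1 climbs in the leaf alone, and CCA1 moves the other way.

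Among heat stress factors, the most negative differences belonged to class B genes. OsHsfB2b (Os08g0546800), annotated as a negative regulator of drought and salt tolerance, stood at 44.1 and 42.1 CPM under CF and at 6.13 and 11.1 CPM under GM in the endosperm. In leaf it stood at 13.0, 12.7 and 13.6 CPM under CF and at 23.6, 23.7 and 22.6 CPM under GM. The endosperm libraries thus lay above the leaf libraries under CF and below them under GM. The difference was −3.17 (SE 0.24, adjusted p = 5.4e-06). HSfB2c (Os09g0526600) fell by 1.39 in the endosperm (SE 0.13) and rose by 0.61 in the leaf (SE 0.10, adjusted p = 0.00943), a difference of −1.996 (SE 0.16). HSfB2a (Os04g0568700) differed by −2.59 (SE 0.29, adjusted p = 2.0e-04), with a leaf response of 0.78 that missed the threshold (adjusted p = 0.0505).

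The class A factor OsHsfA6a (Os10g0419300) differed by −2.07 (SE 0.14), nearly all of it from the endosperm, where 162 and 161 CPM under CF stood against 40.5 and 53.3 CPM under GM. Its leaf response was 0.29 (SE 0.09, adjusted p = 0.129). HSfA2d (Os03g0161900) differed by −1.37 (SE 0.19, adjusted p = 0.00158). In total 5 of 16 tested factors had the lower response in the endosperm, beside 1.00% of all genes. None had the higher, and the list median was −1.01. The list had 5 or 6 calls in each of the 10 fits without a library. OsHsfA2a (Os03g0745000), a class A factor, could not be compared: it averaged 39.8 CPM under CF and 3.91 CPM under GM in the endosperm, and had 14 and 13 leaf reads in all.

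The large chaperones followed. cHsp70-1 (Os01g0840100), an HSP70, stood at 1113 and 1164 CPM under CF and at 316 and 408 CPM under GM in the endosperm, against 154, 151 and 172 CPM and then 243, 327 and 282 CPM in leaf. No libraries of CF and GM overlapped in either tissue, and the difference between responses was −2.49 (SE 0.19, adjusted p = 5.0e-06). OsHsp71.1 (Os03g0276500), a further HSP70, differed by −2.21 (SE 0.17, adjusted p = 5.0e-06). The HSP90 gene OsHSP82A (Os08g0500700) stood at 1409 and 1375 CPM under CF and 563 and 669 CPM under GM in the endosperm, and at 457, 418 and 483 CPM against 688, 872 and 725 CPM in leaf. It differed by −1.93 (SE 0.17, adjusted p = 2.3e-05).

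HSP101 (Os05g0519700), the disaggregase, behaved otherwise. It stood at 270 and 262 CPM under CF and at 59.0 and 60.0 CPM under GM in the endosperm, and at 14.2, 16.5 and 17.1 CPM against 15.6, 19.1 and 15.4 CPM in leaf, where the groups overlapped. Its leaf response was 0.06 (SE 0.10, adjusted p = 0.830), so the difference of −2.22 (SE 0.14, adjusted p = 1.1e-06) came from the endosperm. The related ClpB-m (Os02g0181900) had the same shape, with −1.70 (SE 0.11) in the endosperm and 0.13 (SE 0.09, adjusted p = 0.510) in the leaf. Of 30 tested HSP70, HSP90, HSP101 and ClpB genes, 13 had the lower response in the endosperm, beside 1.00% of all genes. None had the higher, and the median was −0.49. Of the 30 values 27 were negative, beside 9053 of all 18494 genes. Without a library the count ran from 9 to 12.

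**Figure D4:**
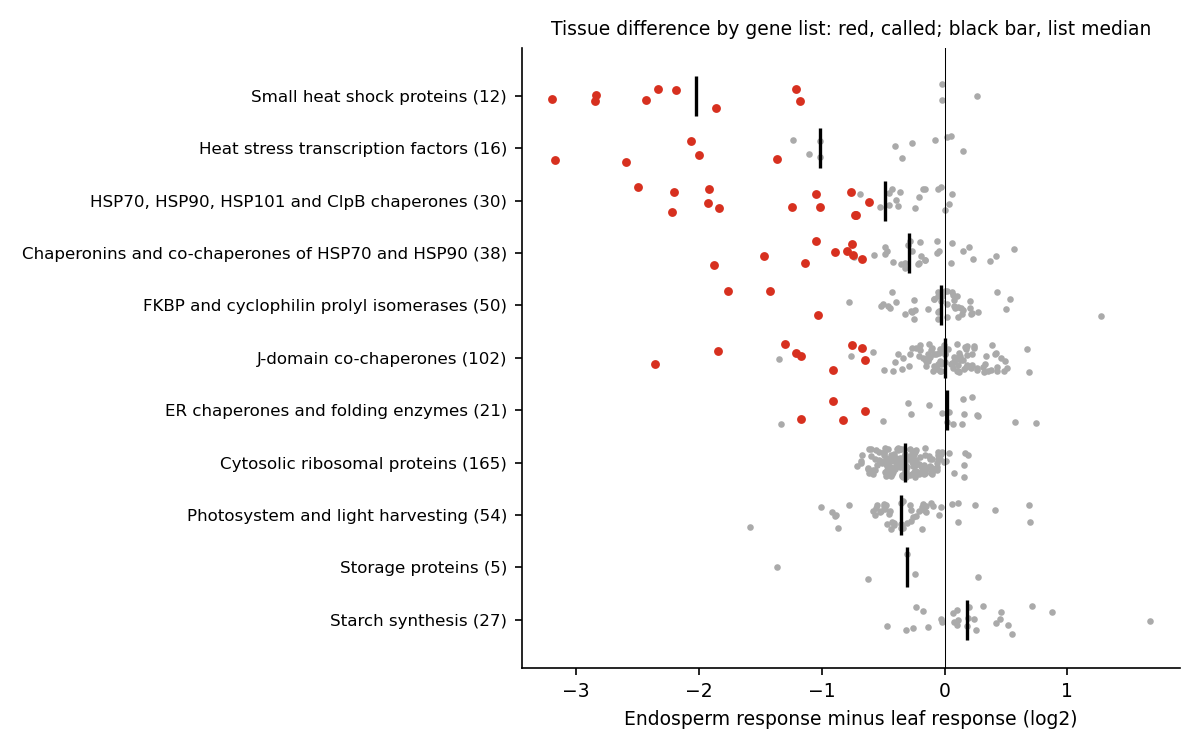
Each point is a gene, placed by its endosperm response minus its leaf response (log2), in rows by gene list with the number of tested members. Red points were called and black bars are list medians: the median is −2.02 for small heat shock proteins, −1.01 for heat stress factors and 0.00 for J-domain proteins.

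Chaperone partners were affected in part. J-domain proteins hand clients to HSP70, and 9 of 102 tested had the lower response in the endosperm, beside 1.00% of all genes. None had the higher, while the list median was 0.00 and changed sign with the scaling. OsDjB7 (Os05g0562300) differed most, at −2.36 (SE 0.17, adjusted p = 2.4e-06), with 127 and 111 CPM against 35.8 and 47.6 CPM in the endosperm and 20.2, 22.7 and 23.0 CPM against 37.7, 42.4 and 38.3 CPM in leaf. OsDjC28 (Os03g0300600) differed by −1.30 (SE 0.13), and OsDjA5 (Os03g0787300), annotated as the counterpart of yeast Ydj1, by −1.21 (SE 0.13). The J-domain count was 4 without endosperm CF replicate 2 and 5 without endosperm CF replicate 1, leaf CF replicate 2 or leaf CF replicate 3.

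Of 50 tested FKBP and cyclophilin genes, whose products isomerise proline bonds, 3 were called, beside 1.11% of all genes. These 3 were all FK506-binding proteins. rFKBP75 (Os02g0491400) fell by 0.97 in the endosperm and rose by 0.45 in the leaf (SE 0.10 and 0.08), a difference of −1.42 (SE 0.13, adjusted p = 2.7e-05). OsFKBP65 (Os04g0352400) differed by −1.76 (SE 0.19) and rFKBP64 (Os08g0525600) by −1.03 (SE 0.13). This count of 3 was the same in all 10 fits without a library. The list median was −0.03.

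Of 21 tested chaperones and folding enzymes of the endoplasmic reticulum (ER), where storage proteins fold, 4 were called, beside 1.11% of all genes. The list median was 0.02. BiP1 (Os02g0115900), the ER-resident HSP70, stood at 2111 and 1907 CPM under CF and 1525 and 1897 CPM under GM in the endosperm, and at 280, 257 and 278 CPM against 442, 399 and 391 CPM in leaf. The endosperm response of −0.23 was not called (SE 0.13, adjusted p = 0.394) and the leaf response of 0.60 was (SE 0.11, adjusted p = 0.0144), giving a difference of −0.83 (SE 0.17, adjusted p = 0.0244). Calnexin (OsCNX, Os04g0402100), a lectin chaperone, differed by −0.65 (SE 0.13, adjusted p = 0.0255), again with the leaf called and the endosperm not. OsERdj3A (Os03g0293000) differed by −1.17 (SE 0.20, adjusted p = 0.0140), with the endosperm called and the leaf not. The other called gene was OsDjB6 (Os05g0156500), at −0.91. It and OsERdj3A are also counted among the J-domain proteins. BiP1 was called in 4 and OsCNX in 3 of the 10 fits without a library, and OsERdj3A lost its call without endosperm CF replicate 2. The list had 1 call without endosperm CF replicate 2, endosperm GM replicate 1, leaf CF replicate 2, leaf CF replicate 3 or leaf GM replicate 3, and 2 without endosperm CF replicate 1 or leaf CF replicate 1.

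Over the 6 lists together, 41 of 229 tested genes were called (17.9%), all with the lower response in the endosperm, and the median was −0.06. Outside these lists 164 of 18265 genes were called. Under a test against a 1.5-fold difference 42 genes were still called, among them 7 small heat shock proteins, 5 heat stress factors, 6 large chaperones, 4 J-domain proteins and 2 FKBPs. The fall in the endosperm ran beside the lower embryo and aleurone markers given above, whose part in it was not tested. In the leaf those markers are near 0. Among pericarp and nucellus markers, taken to stand for maternal tissue around the endosperm, 6 of 8 had a lower mean in the GM endosperm. Their sum went from 1921 and 1936 CPM to 1480 and 1672 CPM. Most of this sum was 1 gene, Os8N3 (Os08g0535200), at 1442 and 1336 CPM under CF and 1134 and 983 CPM under GM. Another of the 8, OsMST4, is a poor marker here, with 1.36 to 6.71 CPM in endosperm libraries and 376 to 563 CPM in leaf libraries. The part of maternal cells in the result was not tested either.

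**Figure D5:**
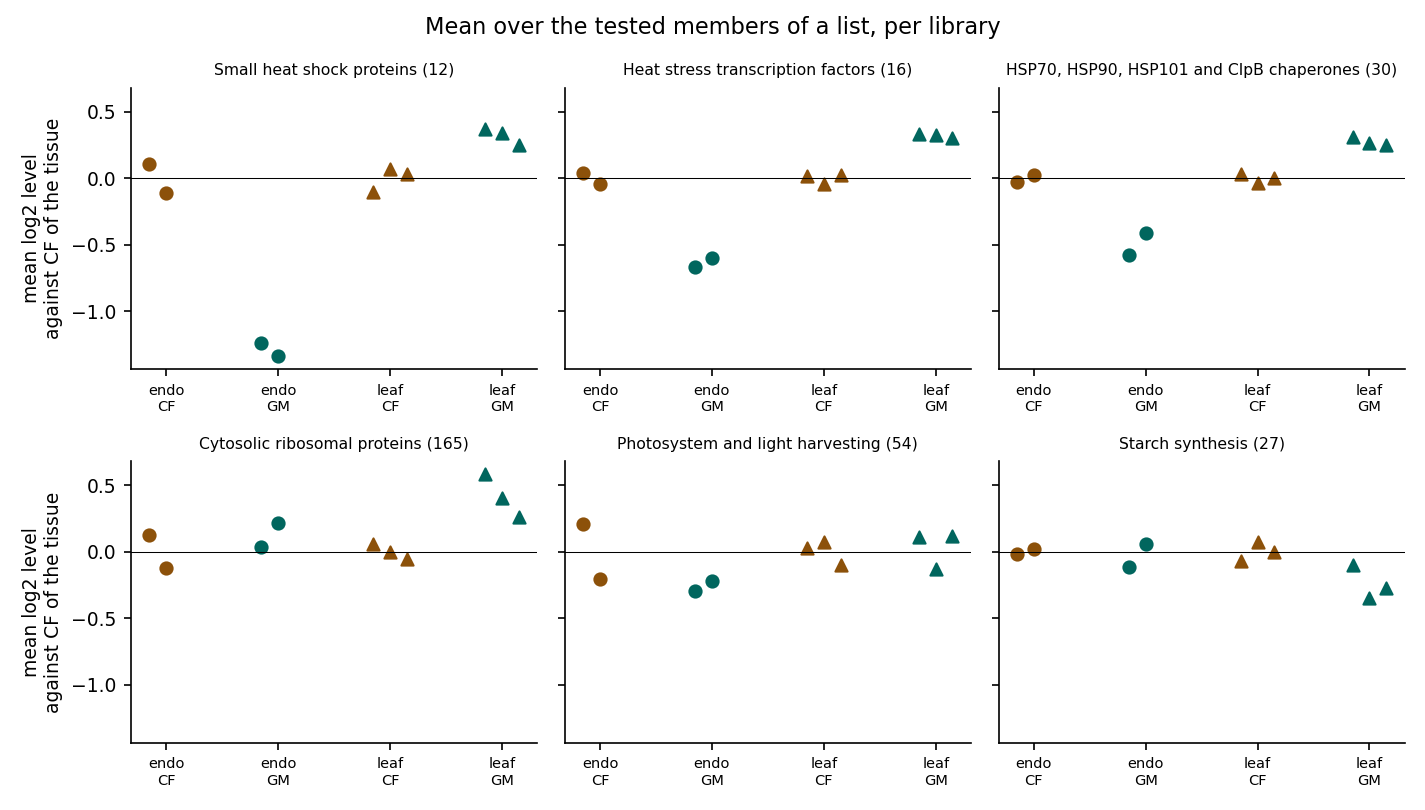
For 6 gene lists, the mean log2 level over the tested members is plotted per library against the CF mean of the same tissue. The 3 heat lists sit below 0 in both GM endosperm libraries and above 0 in all 3 GM leaf libraries, ribosomal proteins sit above 0 in the GM leaf libraries, between 0.26 and 0.58, and starch synthesis sits between −0.35 and −0.10 there.

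Outside the heat family, 1 NAC factor and 1 bZIP factor were called lower in the endosperm and higher in the leaf. OsNAC19 (Os03g0815100), a NAC factor annotated with the response to rice blast, stood at 38.2 and 31.8 CPM against 16.8 and 15.7 CPM in the endosperm and at 55.1, 51.6 and 61.0 CPM against 102, 92.3 and 86.8 CPM in leaf, with no overlap in either tissue. It differed by −1.85 (SE 0.15, adjusted p = 6.9e-06). OsNAC6 (Os01g0884300), linked to drought tolerance, differed by −0.66 (SE 0.15, adjusted p = 0.0473) and was called in 2 of the 10 smaller fits. These were the 2 calls among 44 NAC factors, beside 1.11% of all genes, and the list median was −0.02. ONAC057 (Os03g0221300) had a value of 0.51 (SE 0.13, adjusted p = 0.0728).

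Among 55 bZIP factors 2 were called, beside 1.11% of all genes, and the list median was −0.02. OsbZIP60 (Os07g0644100), annotated as a regulator of grain chalkiness, fell by 0.58 in the endosperm (SE 0.09) and rose by 0.42 in the leaf (SE 0.08), a difference of −1.01 (SE 0.12, adjusted p = 4.7e-04). OsbZIP63 (Os07g0687700) differed by −0.59 (SE 0.11, adjusted p = 0.0151) and was called in 7 of the 10 smaller fits, and not without endosperm CF replicate 1, endosperm GM replicate 1 or leaf CF replicate 2. BZIP50 (Os06g0622700), a factor of the ER stress response, had a value of −0.55 (SE 0.13, adjusted p = 0.0558).

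Other genes with the most negative differences were of varied kinds. Os05g0296800, annotated as similar to the Karma retrotransposon, had the largest, at −3.26 (SE 0.37, adjusted p = 2.2e-04), with 19.3 and 15.5 CPM against 3.02 and 4.35 CPM in the endosperm and at most 2.97 CPM in any leaf library. OsPUB63 (Os06g0159900), described as an arm repeat protein, stood at 77.0 and 94.4 CPM against 15.4 and 19.6 CPM in the endosperm and at 28.3, 27.8 and 31.4 CPM against 36.4, 44.3 and 42.5 CPM in leaf, a difference of −2.78 (SE 0.18, adjusted p = 1.1e-06), with no overlap in either tissue. Os06g0592500, annotated as an ethylene-responsive transcriptional coactivator, differed by −2.54 (SE 0.38, adjusted p = 0.0195). The cytochrome P450 gene CYP72A1 (Os01g0627800) stood at 0.968 and 0.630 CPM against 0.131 and 0.105 CPM in the endosperm, and passed the filter there through the CF libraries alone. A gene selected that way had to differ, so its fitted value of −2.91 (SE 0.50, adjusted p = 0.00916) supports nothing here. Among the 205 called genes, 4 passed the filter in a tissue through 1 treatment alone. Os06g0592500 was not called without leaf CF replicate 2, leaf GM replicate 1 or leaf GM replicate 2, and CYP72A1 not without endosperm CF replicate 1 or either endosperm GM library.

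The 20 genes with the higher response in the endosperm had smaller differences, all with a positive endosperm value and a negative leaf value, and none was called in all 10 fits without a library. CCA1 (Os08g0157600), a MYB factor of the morning clock, stood at 125 and 121 CPM under CF and at 164 and 147 CPM under GM in the endosperm. In leaf it stood at 1103, 1023 and 1065 CPM under CF and at 889, 710 and 785 CPM under GM. The groups did not overlap in either tissue, the leaf response of −0.42 was called (SE 0.10, adjusted p = 0.0368) and the endosperm response of 0.34 was not (SE 0.12, adjusted p = 0.190). The difference was 0.76 (SE 0.16, adjusted p = 0.0260), called in 3 of the 10 smaller fits. OsEPR1 (Os06g0728700), a related MYB-like clock gene, went the other way at −1.16 (SE 0.19, adjusted p = 0.00512), all from the endosperm, where 64.0 and 59.4 CPM stood against 22.6 and 33.6 CPM. These were the 2 calls among 17 clock genes, beside 1.11% of all genes, and the list median was −0.07. OsELF4b (Os03g0410300) had a value of −0.29 (SE 0.14, adjusted p = 0.342). Samples of both tissues were collected between 9 and 10 in the morning.

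Under the naming rule, the largest positive differences were those of a pair of genes with at most 3.26 CPM in any library of 1 tissue. The nodule-specific-like gene Os12g0484600 differed by 1.92 (SE 0.38, adjusted p = 0.0225), with 0.753 and 0.472 CPM against 2.45 and 1.36 CPM in the endosperm. Os02g0734400, annotated as similar to an abscisic acid-induced protein, differed by 1.86 (SE 0.35, adjusted p = 0.0167), through a leaf response of −1.58 (SE 0.31, adjusted p = 0.0220). The transporter OsZIFL10 (Os12g0132800) differed by 0.72 (SE 0.14), and the beta-glucosidase bglu1 (Os03g0703000) by 0.75 (SE 0.15), both with the leaf called lower. OsSCAR2 (Os03g0298700) differed by 0.90 (SE 0.19), from the endosperm, with a leaf value of 0.00. The others under the naming rule were OsTCL2 (Os01g0619900) at 1.05, Fbox-14 (Os11g0205800) at 0.87, Os04g0602900 at 0.81 and the MYB-related OsRL3 (Os02g0706400) at 0.74, with adjusted p from 0.0255 to 0.0483.

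The 3 genes that moved alike set the contrast. The WD40 repeat gene OsWD40-182 (Os11g0134500) rose by 0.53 in the endosperm (SE 0.10, adjusted p = 0.0201) and by 0.44 in the leaf (SE 0.09, adjusted p = 0.0223). The mitochondrial carrier Os01g0225000 fell by 0.65 and 0.78 (SE 0.13 and 0.16), and Os01g0532300, of unknown function, by 1.29 and 0.94 (SE 0.28 and 0.13). Their differences between tissues were 0.09 (SE 0.13), 0.12 (SE 0.21) and −0.35 (SE 0.30), and none was called.

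Starch synthesis and storage protein genes gave no call for the tissue difference in the main edgeR fit. Over all 18494 genes, 2696 (14.6%) had an unadjusted p under 0.05 for this difference, and 9053 had a negative value. Of 32 starch synthesis genes 27 were tested, with a median difference of 0.18, which was 0.08 without endosperm GM replicate 2. No starch gene was called in the main edgeR fit, 7 had an unadjusted p under 0.05, DESeq2 called 2 and limma-voom none. With at least 5 CPM in each tissue edgeR called 1. It called 1 without leaf CF replicate 1, 1 without leaf CF replicate 2 and 2 without leaf GM replicate 1. Fitting the tissues alone called 2. The value nearest the threshold was that of GBSS2 (Os07g0412100), the granule-bound starch synthase of leaf, with 275 and 303 CPM against 357 and 324 CPM in the endosperm and 1183, 1451 and 1339 CPM against 1046, 695 and 807 CPM in leaf, a difference of 0.88 (SE 0.21, adjusted p = 0.0671). OsAGPL1 (Os05g0580000), a large subunit of ADP-glucose pyrophosphorylase, had a difference of 1.67 (SE 0.36, adjusted p = 0.0712), and the branching enzyme OsBEIIa (Os04g0409200) of 0.45 (SE 0.14, adjusted p = 0.151). In the leaf 4 of the 27 fell, beside 0.535% of all genes, and none rose, and in the endosperm none was called.

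Only 5 of 55 storage protein genes were expressed in both tissues, and none was called by edgeR, with a median of −0.31 that lay between −0.475 and −0.11 over the fits without a library, nearest 0 without leaf GM replicate 2 or leaf CF replicate 3 (−0.127). Of the 5, 2 had an unadjusted p under 0.05, and DESeq2 called 1 and limma-voom none. Fitting the tissues alone called 1. The glutelin family gene OsAGP3 (Os03g0188500) had a difference of −1.37 (SE 0.34, adjusted p = 0.0756) and OsGluA2 (Os10g0400200), a major glutelin, of −0.62 (SE 0.26, adjusted p = 0.294). OsGluA2 stood at 13413 and 11917 CPM under CF and at 8040 and 9329 CPM under GM in the endosperm and at no more than 7.79 CPM in any leaf library. The 1 embryo marker tested, the caleosin OsPXG9 (Os06g0254700), had a difference of −0.04 (SE 0.36, adjusted p = 0.977) in edgeR, beside −0.05 in DESeq2 and −0.02 in limma-voom, and its sign changed without single libraries. Of 2 pericarp and nucellus markers tested, the aspartic protease OsAsp2 (Os11g0183900) was called at −0.81 (SE 0.18, adjusted p = 0.0462) from a rise in the leaf, in 2 of the 10 smaller fits, and the sugar transporter OsMST4 (Os03g0218400) had a value of 0.34 (SE 0.75).

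Ribosomal protein and photosystem genes had mostly negative differences and no calls in the main edgeR fit. Of 165 tested cytosolic ribosomal protein genes, 158 had a negative difference, beside 9053 of all 18494 genes. The list median was −0.32, and none of the 165 was called by edgeR. An unadjusted p under 0.05 was found for 57 of them, beside 14.6% of all genes, and DESeq2 called 6 and limma-voom 1. Without endosperm CF replicate 2 edgeR called 9, and fitting the tissues alone called 10. The median was −0.167 without endosperm CF replicate 1, and between −0.448 and −0.216 without any other single library. In the leaf 67 of the 165 rose, beside 1.89% of all genes, and none fell, with a median of 0.45. In the endosperm 1 fell, beside 1.11% of all genes, and none rose, with a median of 0.14. Leaf calls over all genes went from 448 to 23 without leaf CF replicate 3 and to 47 without leaf CF replicate 2. The L27a-3 gene Os07g0613200 stood at 61.2 and 52.7 CPM against 55.2 and 59.2 CPM in the endosperm, which overlapped, and at 26.8, 27.7 and 27.2 CPM against 41.4, 38.3 and 38.9 CPM in leaf, which did not. Its difference was −0.54 (SE 0.12, adjusted p = 0.0518), that of the L4 gene Os07g0180900 −0.67 (SE 0.15, adjusted p = 0.0522) and that of the L27 gene Os10g0564300 −0.62 (SE 0.15, adjusted p = 0.0748).

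Of 54 tested photosystem and light-harvesting genes, 47 had a negative difference, beside 9053 of all 18494 genes, with a median of −0.35. This median was −0.086 without endosperm CF replicate 1 and −0.547 without endosperm CF replicate 2. The mean log2 level of the list was 0.21 and −0.21 in these CF libraries and −0.30 and −0.22 in the GM endosperm libraries. None was called in the main edgeR fit, 20 had an unadjusted p under 0.05 (14.6% of all genes), and DESeq2 called 4 and limma-voom none. With TMM scaling within each tissue edgeR called 1. It called 1 without leaf GM replicate 1 and 2 without leaf GM replicate 2. Fitting the tissues alone called 3. Here the endosperm median was −0.35 and the leaf median −0.00. The light-harvesting gene Oscab2R (Os01g0600900) had a difference of −1.01 (SE 0.25, adjusted p = 0.0715), Psb27 (Os03g0333400) of −0.88 (SE 0.23, adjusted p = 0.0980) and the PsbX family gene Os07g0673550 of −0.56 (SE 0.17, adjusted p = 0.152).

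Of 51 tested phosphate starvation genes 2 were called, both with the lower response in the endosperm, beside 1.11% of all genes, and the median was −0.03. With no filter, with the filter over the 10 libraries together, with the replicate block and in 6 of the 10 fits without a library none was called. The phosphate sensor OsSPX2 (Os02g0202200) differed by −0.68 (SE 0.15, adjusted p = 0.0388), with 21.1 and 17.8 CPM against 12.4 and 12.9 CPM in the endosperm and overlapping leaf libraries. The acid phosphatase OsACP1 (Os01g0720400) differed by −1.36 (SE 0.28, adjusted p = 0.0468). OsSPX2 was called in 3 and OsACP1 in 2 of the 10 smaller fits.

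Co-chaperones that serve HSP70 and HSP90 were listed after the called genes had been seen, so their count is a description. Of 38 tested, 9 were called, beside 1.11% of all genes. All 9 had the lower response in the endosperm, and the list median was −0.29. OsHop/Sti1b (Os04g0538000), of the family that links HSP70 to HSP90, stood at 110.1 and 115.5 CPM against 45.5 and 55.2 CPM in the endosperm and at 29.5, 23.9 and 25.3 CPM against 30.9, 54.1 and 43.5 CPM in leaf, a difference of −1.87 (SE 0.26, adjusted p = 0.00539). Os02g0139100, an HSP90 ATPase activator domain gene, fell by 0.91 in the endosperm and rose by 0.56 in the leaf, with a difference of −1.47 (SE 0.14, adjusted p = 2.8e-05). The chaperonin OsHSP60-3B (Os10g0462900), annotated with pollen protection at high temperature, differed by −1.05 (SE 0.14, adjusted p = 0.00123).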

How the data were processed

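RNA-seq counts were analysed for 4 endosperm and 6 flag leaf libraries. The deposited tables hold raw counts of reads placed uniquely in exons per gene, per the labels, so near-identical copies lose reads. The submitters' processing notes name IRGSP-1.0 as the genome. Which aligner and counter were used is not given in the sources used. The tables were joined on gene ID. Genes passing filterByExpr (minimum count 10) in each tissue were scaled by TMM over the 10 libraries and fitted by group with edgeR's robust quasi-likelihood F test. The endosperm response minus the leaf response was tested, with Benjamini-Hochberg adjustment over 18494 genes and a threshold of 0.05. Log2 values are given with standard errors (SE). Each SE was derived from the test, as the size of the log2 value divided by the square root of F. R 4.3.3, edgeR 4.0.16, limma 3.58.1, DESeq2 1.42.0, Python 3.11.15, pandas 2.3.3 and matplotlib 3.10.9 were used. On simulated counts with 50 genes changed at each size, the test recovered 46 at −2, 31 at −1, 37 at 1 and 48 at 2 (log2), with 8 false among 170 calls. The simulation gave each gene the spread of the fitted trend and no change in the leaf. Its share of false calls therefore need not hold for the real libraries.

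The members and the 48 gene lists were chosen with earlier results of these data known, and 3 lists were added after the called genes were seen. Lists came from the symbols and descriptions in the deposited tables. Named genes were the 10 most negative and 10 most positive called differences among genes with an informative name and at least 5 CPM in 1 tissue, up to 4 called oppositely in both tissues, up to 3 of smallest p in each list described, and up to 4 that moved alike. OsHSP82A, ClpB-m, HSfA2d, OsDjB6, OsHsp17.9A, OsHSP26, Os11g0244200, Os04g0445100, OsHsfA2a and the co-chaperones were named after their values were seen. Other scalings, filters, tests, depths, a replicate block and the loss of each library were tried. For the fit of each tissue alone, a t distribution with Satterthwaite degrees of freedom replaced the normal approximation first planned.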

Additional observations from a re-analysis of the deposited data

Results flagged for a closer look

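The difference between the tissues was itself tested, as an interaction in one fit over the 10 libraries, and it passed the threshold in 205 genes. Values below are the endosperm response minus the leaf response (log2) for the called genes that the naming rule chose. Further called genes named in the report have their values there.

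Heat stress factors chosen by the rule were OsHsfB2b at −3.17, HSfB2a at −2.59, OsHsfA6a at −2.07 and HSfB2c at −1.996. Small heat shock proteins were HSP20 at −3.20, OsHsp24.1 at −2.85, OsMSR3 at −2.84 and OsHsp17.4 at −2.18. Large chaperones were cHsp70-1 at −2.49, HSP101 at −2.22 and OsHsp71.1 at −2.21. J-domain genes were OsDjB7 at −2.36, OsDjC28 at −1.30 and OsDjA5 at −1.21. Prolyl isomerases were OsFKBP65 at −1.76, rFKBP75 at −1.42 and rFKBP64 at −1.03. In the endoplasmic reticulum, OsERdj3A stood at −1.17, BiP1 at −0.83 and OsCNX at −0.65.

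Transcription factors and clock genes were OsNAC19 at −1.85, OsEPR1 at −1.16, OsbZIP60 at −1.01, OsNAC6 at −0.66 and OsbZIP63 at −0.59. Other negative values were those of Os05g0296800 at −3.26, CYP72A1 at −2.91 (which passed the filter in the endosperm through the CF libraries alone), OsPUB63 at −2.78, Os06g0592500 at −2.54, OsACP1 at −1.36, OsAsp2 at −0.81 and OsSPX2 at −0.68.

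Positive values were 1.92 for Os12g0484600, 1.86 for Os02g0734400, 1.05 for OsTCL2, 0.90 for OsSCAR2, 0.87 for Fbox-14, 0.81 for Os04g0602900, 0.76 for CCA1, 0.75 for bglu1, 0.74 for OsRL3 and 0.72 for OsZIFL10.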

How the results depend on the processing

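Over alternative scalings, limma-voom, thinning to equal depth, other filters and leaving out the 20 most abundant genes, the 205 calls ranged from 154 to 251, and the 20 positive calls were 33 with at least 5 CPM in each tissue. DESeq2 called 386 genes (326 negative, 60 positive), 388 in the endosperm, 693 in the leaf and 42 in opposite directions. Fitting the tissues alone called 432 (385 negative, 47 positive). Against a 1.5-fold difference 42 were called, all negative and 0 positive, with 38 in the endosperm, 0 in the leaf and 0 in opposite directions. With leaf replicates 1 and 2 alone 86 were called (85 negative, 1 positive), with 9 in the leaf and 3 in opposite directions. Leaving out each library in turn gave 102 to 290 calls, 98 to 250 negative, 2 to 54 positive, 87 to 327 in the endosperm, 23 to 579 in the leaf and 6 to 33 in opposite directions. The causes were not tested.

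All 10 of those fits kept 77 of the 205 calls, none positive. The values of 4 genes that were not called changed sign. That of OsPXG9 was 0.001 with no filter, and ranged from −0.286 to 0.208 over the fits without a library. Over these fits OsMST4 ranged from −1.267 to 1.144 and Os01g0225000 from −0.017 to 0.292. That of OsWD40-182 was −0.009 with leaf replicates 1 and 2 alone. The all-gene median moved by less than 0.1 under every scaling.

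Same-numbered libraries deviated together with correlations of 0.0924 in the endosperm and −0.00836 to 0.0443 in the leaf, so the numbers were not taken to pair samples. With the replicate block 181 genes were called (164 negative, 17 positive), 194 in the endosperm, 409 in the leaf and 24 in opposite directions. Thinned to equal depth, the libraries gave 203 calls.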

Other observations

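Genes outside the lists above were chosen after their values were seen and are given as values. HSA32 (Os06g0682900), a heat stress associated protein annotated with long-term acquired thermotolerance, stood at 168.1 and 180.1 CPM under CF and at 98.8 and 103.5 CPM under GM in the endosperm. In leaf it stood at 21.2, 22.7 and 21.6 CPM under CF and at 25.2, 22.5 and 25.5 CPM under GM, where the groups overlapped. Its difference was −0.94 (SE 0.12, adjusted p = 5.4e-04). OsBHT (Os01g0757500), annotated with heat tolerance, differed by −0.99 (SE 0.13, adjusted p = 8.2e-04). Both were called in all 10 fits without a library.

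Some genes differed through the leaf. WCR1 (Os01g0921800), an F-box protein annotated as a negative regulator of grain chalkiness, rose in the leaf from 42.5, 45.5 and 42.7 CPM to 60.4, 59.3 and 63.3 CPM, and its endosperm response of −0.39 was not called (adjusted p = 0.139). Its difference was −0.88 (SE 0.14, adjusted p = 0.00519). The histone H4 gene Os09g0553100 rose by 0.65 in the leaf and differed by −0.93 (SE 0.14, adjusted p = 0.0038). ONG4 (Os01g0130400), similar to an alpha-xylosidase, rose in the leaf from at most 1.03 CPM to at least 2.32 CPM and differed by −1.96 (SE 0.28, adjusted p = 0.00173).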
